A study of Phragmites australis with 7 samples.

Results

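Mesophyll-scored cells of the common reed (Phragmites australis) shoot were the 200 cells of each single-cell library selected on the highest summed expression of 10 mesophyll marker genes, which gave 1200 cells out of 54987 kept cells and 67194 barcodes. The score was the sum over the 10 genes of the natural log of 1 plus the UMIs (unique molecular identifiers, each standing for 1 captured RNA molecule) per 10000 UMIs of the cell, and a cell was kept when it had at least 500 genes and 2000 UMIs. The series compared 3 plants of the invasive North American population with 3 plants of the European (EU) source population, all untreated, grown in a common garden and held at 25 degrees before sampling. Protoplasts, which are cells freed of their walls by enzymes, were made from regrown shoot buds of 1 plant per library, with several buds of a plant pooled, and loaded on a droplet platform that reads the 3' ends of transcripts. The tissue label of the samples was shoot, while the extraction text of the same samples named the rhizome tip. The invasive libraries were NAint61, NAint113 and NAint191 (replicates 1, 2 and 3) and the EU libraries were EU60, EU78 and EU620 (replicates 1, 2 and 3). A further sample was 1 bud section of the invasive plant NAint61, measured on a spatial array.

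Mesophyll is the photosynthetic ground tissue of leaves and green stems. In its chloroplasts the light-harvesting antenna proteins pass light energy to photosystems II and I, the electron transfer chain between the photosystems supplies ATP and NADPH, and the Calvin cycle uses both to fix carbon dioxide into sugar. In a growing grass shoot these genes are switched on as plastids turn into chloroplasts, a step that also needs protochlorophyllide reductase for chlorophyll and the ribosomes of the plastid.

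The 10 score genes comprised 3 subunits of photosystem I (PSAH-2, PSAE-2 and PSAG), 3 of photosystem II (PSBR, OEC33 and PSBQ), CP12, a small regulator of Calvin cycle enzymes, both copies of the vacuolar aquaporin GAMMA-TIP, and LTI6b, a small membrane protein. Gene symbols are those of the closest Arabidopsis thaliana gene as the study gave it. Because the score chose the cells, the levels of its genes and the contrast of these cells with the other 53787 kept cells are given as a description, without a test. A median of 10, 8 and 10 score genes was detected per mesophyll-scored cell in the invasive libraries NAint61, NAint113 and NAint191, and of 9, 8 and 10 in the EU libraries EU60, EU78 and EU620. All 10 were detected in 177, 49 and 197 of the 200 cells of the invasive libraries and in 70, 43 and 197 of those of the EU libraries. NAint113, EU60 and EU78 therefore gave far fewer cells with the whole set than the other 3 libraries.

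The same fixed number of cells per library reached to different depths of the score. The lowest score among the members was 23.44, 11.51 and 27.41 in the invasive libraries and 14.54, 11.31 and 27.26 in the EU libraries, and the next cell outside scored 23.42, 11.50, 27.41, 14.54, 11.30 and 27.25 in the same order of libraries, so no gap in the score separated members from the rest. At least 4 of the 6 photosystem genes were detected in 200, 138 and 200 members of the invasive libraries and in 183, 134 and 200 members of the EU libraries. Among the other cells the same was true of 1080, 113 and 3434 cells in the invasive libraries and 508, 328 and 1610 cells in the EU libraries. The members thus left out many cells with photosystem transcripts in NAint61, NAint191 and EU620, and took in cells with few of them in NAint113, EU60 and EU78. Ranking all libraries together for the 1200 highest scores took 162, 4 and 624 cells from the invasive libraries and 1, 2 and 407 from the EU libraries.

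The libraries that stood apart were those that the labels put in different batches. NAint113, EU60 and EU78 were in batch 1, NAint191 and EU620 in batch 2, and NAint61 alone in batch 3, so each population had libraries of batch 1 and of batch 2. The libraries held 95335255 to 132478792 UMIs in total, and the 200 members held 3464575, 2531681 and 2610692 UMIs in the invasive libraries and 1976970, 2165850 and 6107290 in the EU libraries. The median member had 10914.5, 9256 and 12044.5 UMIs in the invasive libraries and 7318, 9264 and 29514 in the EU libraries, against 11145, 7433 and 10033 UMIs for the other cells of the invasive libraries and 10151, 9865 and 14161.5 for those of the EU libraries. Members of EU620 were thus deeper than the other cells of their library by the widest margin, while those of EU60, EU78 and NAint61 were shallower. When each cell was thinned to 2000 UMIs, the median number of genes per member was 1186.5 to 1289 over the 6 libraries, against 1165 to 1259 in other cells. Pairs of libraries shared 14 to 52 cell barcodes, and no barcode was shared between members. A doublet caller set to mark the top 8% of scores in each library marked 4, 5 and 0 members of the invasive libraries and 8, 2 and 2 members of the EU libraries.

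Photosynthesis genes that the score did not use were also higher in members of every library, but to very different degrees. Some of them were second copies of score genes, among them a PSBQ copy (PaChr15.855) and a CP12 copy (PaChr3.1111), and near-identical copies may share reads. The 38 photosynthesis genes outside the score, which covered both photosystems, the antenna, electron transfer and the Calvin cycle, took a median of 1.87%, 0.200% and 2.84% of the UMIs of a member in the invasive libraries NAint61, NAint113 and NAint191 and 0.458%, 0.320% and 4.15% in the EU libraries EU60, EU78 and EU620. The other cells of the same libraries had medians of 0.0449%, 0.0292% and 0.0977% in the invasive plants and 0.0378%, 0.0221% and 0.0990% in the EU plants. Members therefore exceeded other cells in all 6 libraries. Thinned to 2000 UMIs, a member held transcripts of 19, 4 and 24 of the 38 genes in the invasive libraries and of 6, 4 and 28 in the EU libraries (medians), while the other cells held 0 to 2. A member of batch 1 thus carried few of the listed genes at this depth, and a member of batches 2 and 3 carried many more. Within a library the members varied as well. The first 100 by score had a median share per cell of 3.23%, 0.346% and 3.37% in the invasive libraries, against 1.26%, 0.151% and 2.51% for the next 100. In the EU libraries the first 100 had 0.523%, 0.399% and 5.03%, and the next 100 had 0.408%, 0.223% and 3.46%.

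**Figure D1:**
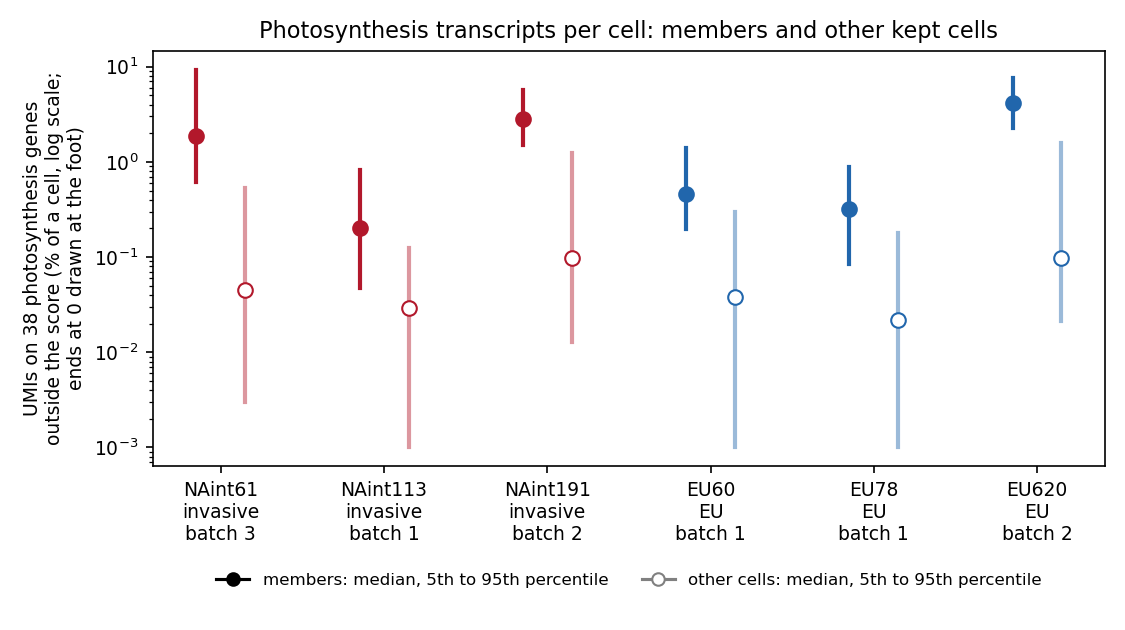
Share of a cell's UMIs on 38 photosynthesis genes outside the score (%, log scale) for the members (filled) and the other kept cells (open) of each library, with the point at the median and the bar from the 5th to the 95th percentile. Member medians were 1.87%, 2.84% and 4.15% in NAint61, NAint191 and EU620, and 0.200%, 0.458% and 0.320% in NAint113, EU60 and EU78.

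Transcripts of photosynthesis genes were also found in cells scored for other types, so a single UMI did not mark a member. PSAH-2 (PaChr9.1485), the H subunit of photosystem I and a score gene, had a UMI in 100%, 81.5% and 100% of members of the invasive libraries and in 95.5%, 80% and 100% of members of the EU libraries. Of the 200 cells per library with the highest score for markers of epidermal cell 2, those that were not members had a UMI of PSAH-2 in 14%, 0.5% and 21.50% of cases in the invasive libraries and in 2.5%, 2.01% and 33% in the EU libraries, at median depths of 11057, 8302, 11157.5, 7760.5, 5262 and 22119 UMIs in the same library order. The epidermal-scored share thus also stood higher in batches 2 and 3 than in batch 1. It was the lowest of the 4 scored types, and cells scored for G2/M phase had a UMI of PSAH-2 in 47.9%, 12.99% and 66.8% of cases in the invasive libraries and in 19.0%, 11.111% and 56.2% in the EU libraries. Cells scored for bundle sheath reached 52% in EU620, and those scored for chlorenchyma, another green ground tissue, reached 55.4% in NAint191. The higher share in members was fixed by their selection on this gene.

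Members expressed fewer markers of several other cell types than the other cells did. Of 14 marker lists of other types, each of 10 genes from the study, 6 took a smaller share of UMIs in members than in other cells of all 6 libraries, namely bundle sheath, vascular parenchyma, both protoderm lists and both epidermal lists. These lists were not independent, since the protoderm and epidermal lists shared genes, as did bundle sheath and protoderm 2. Protoderm 1 was nearly equal in EU60, at 0.494% in members and 0.498% in other cells, and 8 of its 10 genes were lower in all 6 libraries. The summed level of the markers of epidermal cell 2 was 0.00870% to 0.0593% of UMIs in members and 0.0565% to 0.938% in other cells, with all 10 genes lower in members of each library. For the bundle sheath, the layer of cells round the veins, the range was 0.126% to 0.726% in members and 0.191% to 1.37% in other cells, again with all 10 genes lower. The 2 genes of NADP-malic enzyme, which releases carbon dioxide from malate, were lower in members too, at 0.180 to 0.381 times the share in other cells.

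The other 8 lists, among them those of vascular tissue, phloem, xylem, chlorenchyma and dividing cells, were not lower in members of all 6 libraries. Markers of G2/M phase took 0.422%, 0.387% and 0.190% of member UMIs in the invasive libraries and 0.418%, 0.425% and 0.224% in the EU libraries, which was 1.003 to 3.304 times the share in other cells. The meristematic list was 0.569 to 2.11 times the share in other cells and reached its highest level in NAint113, at 0.884% of member UMIs against 0.418% in other cells. The G2/M list took 0.387% to 0.425% of member UMIs in batch 1 and 0.190% to 0.422% in batches 2 and 3, so the batches overlapped. The part of such cells in any result below was not tested.

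Among genes outside the score, 20 with a mean of at least 50 CPM (counts scaled to 1000000 UMIs of the summed cells) in members were named for the largest median log2 ratio of members over other cells across the 6 libraries. Of these 20, 8 were antenna genes, 5 photosystem II genes, 2 photosystem I genes, 1 an electron transfer gene and 1 a protochlorophyllide reductase, and 3 were on none of the lists. As a background, 16% of the 22956 genes tested were higher in members of all 6 libraries and 3.67% were over 2-fold higher in all 6, in a contrast that the score itself shaped. Of the 38 photosynthesis genes outside the score, 36 were over 2-fold higher in members of all 6 libraries, and the median of their log2 ratios was 3.84 against -0.01 over all genes tested.

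The light-harvesting antenna led the contrast. LHB1B2 (PaChr12.1613), which encodes a chlorophyll a/b binding protein of photosystem II, had 3084, 230.3 and 5518 CPM in members of the invasive libraries and 152.8, 170.8 and 8208 CPM in members of the EU libraries. Other cells had 88.1, 2.25 and 332.7 CPM in the invasive libraries and 2.99, 1.93 and 405.8 CPM in the EU libraries, a median fold of 36.5 (log2 5.19), with a lowest log2 ratio of 4.05. It was found in 98%, 40.5% and 99.5% of the members of the invasive libraries and in 31%, 29.5% and 100% of those of the EU libraries. LHB1B2 transcripts were thus near universal in members of batches 2 and 3 and present in a minority of members of batch 1. LHCB4.2 (PaChr16.626), a minor antenna protein of photosystem II, was a median of 18.8-fold higher in members than in other cells. LHCA2 (PaChr15.1005), an antenna protein of photosystem I, was 23.2-fold higher, and the LHCB2 copies PaChr3.1750 and PaChr4.1557, which encode a mobile antenna protein, were 20.6-fold and 18.6-fold higher. The further LHB1B2 copies PaChr2.1265, PaChr2.1749 and PaChr1.1353 were 23.1-fold, 21.2-fold and 20.2-fold higher by the same median. PaChr2.1749 was the exception to the rule of all libraries, since members had 537.2, 12.6 and 374.6 CPM in the invasive libraries and 0, 0 and 728.0 CPM in the EU libraries, with a lowest log2 ratio of -0.05. The antenna as a list of 11 genes took 0.931%, 0.0619% and 1.35% of the UMIs of invasive members and 0.0530%, 0.0400% and 1.91% of those of EU members, which was 16.08 to 86.0 times the share in other cells.

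The photosystems followed. PSBW (PaChr2.2019), a small subunit of photosystem II, had 981.4, 80.97 and 1225 CPM in members of the invasive libraries and 115.8, 80.80 and 1921 CPM in members of the EU libraries, against 44.8, 1.32 and 129.5 CPM in other cells of the invasive libraries and 3.104, 1.69 and 158.6 CPM in other cells of the EU libraries. PSAN (PaChr22.553), a lumenal subunit of photosystem I, was a median of 24.7-fold higher in members, as was PSBW. The oxygen-evolving complex, which splits water at photosystem II, was represented by OE23 (PaChr15.143) at 18.4-fold, by MSP-1 (PaChr2.1022) at 17.9-fold and by a PSBQ copy outside the score (PaChr15.855) at 18.7-fold. PSBX (PaChr15.1404), a small photosystem II subunit, stood at 17.96-fold and PSAO (PaChr7.1315), a photosystem I subunit, at 19.5-fold. All 11 photosystem I genes and all 11 photosystem II genes, score genes included, were over 2-fold higher in members of each library. Their lists took 9.27 to 26.0 times and 9.06 to 30.8 times the share in other cells.

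Electron transfer and chlorophyll synthesis moved alongside. PETE1 (PaChr13.3), the copper protein plastocyanin that carries electrons to photosystem I, had 1363, 80.58 and 1510 CPM in members of the invasive libraries and 84.98, 27.70 and 2328 CPM in members of the EU libraries, a median of 19.0-fold over other cells. PetM (PaChr3.2436) and PETC (PaChr16.636), both subunits of the cytochrome b6f complex, were 8.40-fold and 8.47-fold higher. The 3 genes of protochlorophyllide reductase (PORA), the light-dependent enzyme of chlorophyll synthesis, were 19.3-fold (PaChr7.112), 14.1-fold (PaChr11.92) and 13.7-fold (PaChr18.799) higher. CURT1A (PaChr6.1944), which bends thylakoid membranes, was on none of the lists and was 19.7-fold higher. The remaining unlisted genes were PaChr6.1613, whose closest Arabidopsis gene is AT4G12520, at 22.8-fold, and the unannotated PaChr23.453_PaChr23.454 at 19.2-fold.

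The Calvin cycle and the plastid's own machinery showed a smaller and more even contrast. The 9 Calvin cycle genes took 3.34 to 6.04 times, the 18 plastid ribosome genes 6.29 to 13.7 times, and the 6 chloroplast-encoded genes 3.73 to 6.93 times the share they had in other cells. CP12 (PaChr4.1056) had 1708, 1187 and 1561 CPM in members of the invasive libraries and 1145, 1580 and 1495 CPM in members of the EU libraries. These levels lacked the gap between batches seen for the antenna. They belong to a score gene, so the selection shaped them, and they do not bear on the evenness of the list. The aldolase gene AtFBA2 (PaChr10.1007), whose enzyme joins triose phosphates in the cycle, had 542.6, 184.5 and 861.5 CPM in invasive members and 316.6, 257.6 and 1110 CPM in EU members, a median of 9.43-fold over other cells. AtRbcX2 (PaChr3.2662), a chaperone of Rubisco assembly, did not follow and had a median log2 ratio of 0.07. This gene was also on the list of vascular tissue markers. All 18 plastid ribosome genes were over 2-fold higher in members of every library, with gene medians of 2.53 to 3.63 on the log2 scale. The 6 aquaporins, 2 of them score genes, took 2.28 to 8.76 times the share in other cells.

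**Figure D2:**
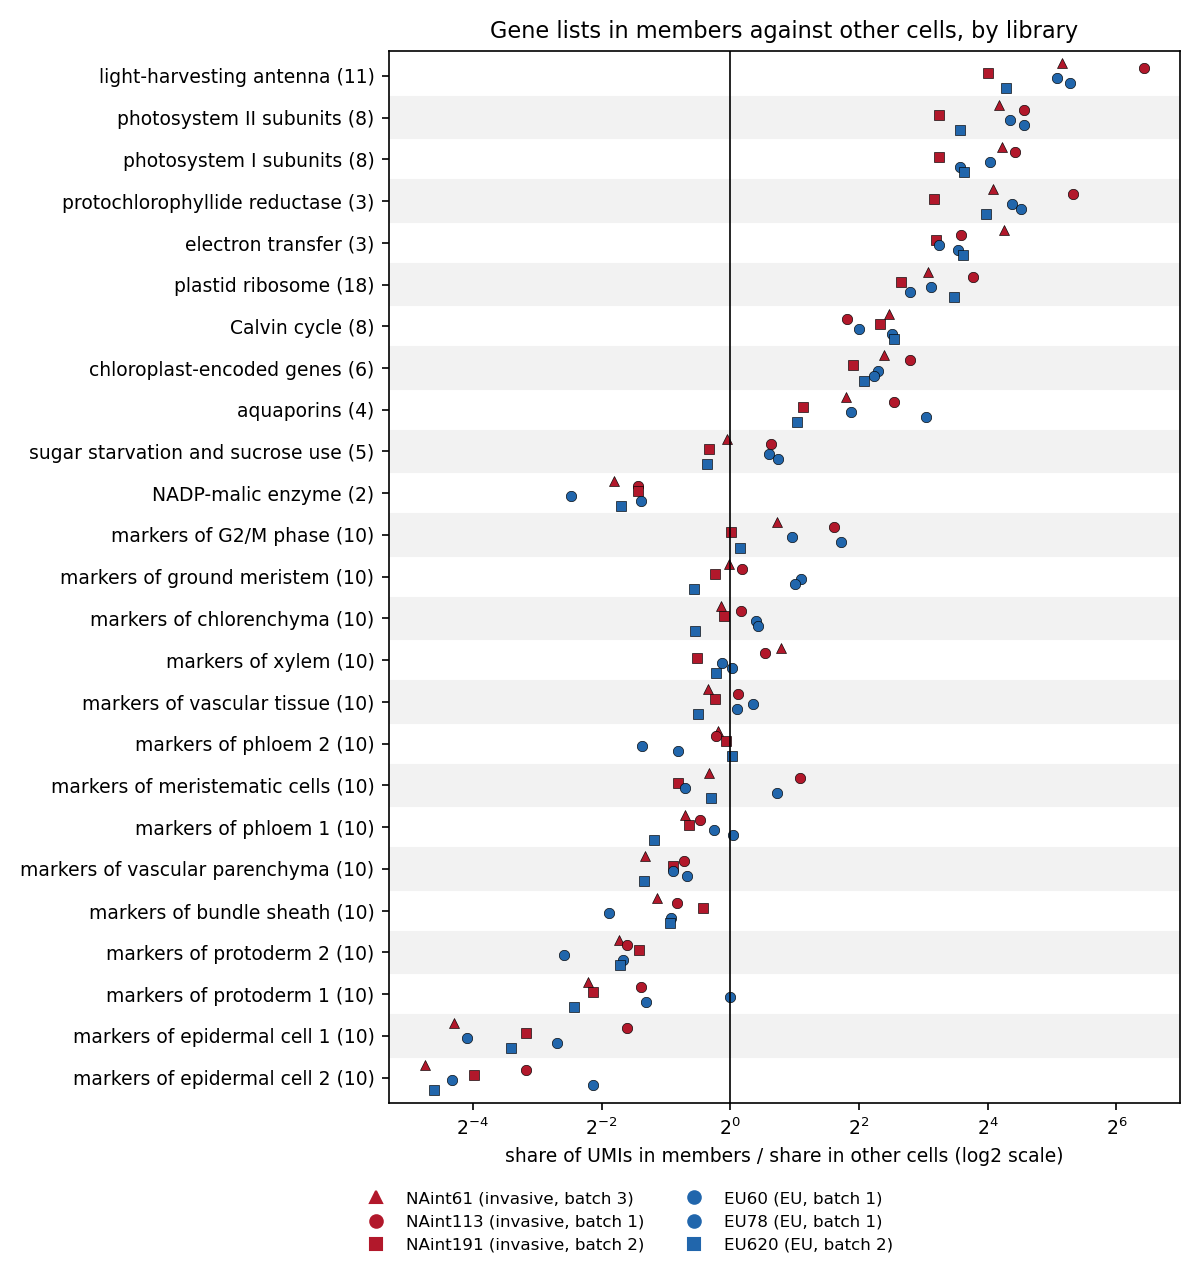
Share of UMIs on each gene list in members divided by the share in other cells (log2 scale), 1 point per library, with invasive libraries in red and EU libraries in blue. The antenna stood highest at 16.08 to 86.0, and the markers of epidermal cell 2 stood lowest among the lists at 0.0373 to 0.229.

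Across libraries the level of these genes in members divided by batch and not by population. The antenna took 0.931% to 1.91% of member UMIs in the libraries of batches 2 and 3 and 0.0400% to 0.0619% in those of batch 1, a 27.0-fold ratio of the means. Outside the score, the ratio was 9.31 for photosystem I genes, 8.82 for photosystem II genes, 10.9 for electron transfer and 10.4 for protochlorophyllide reductase, and the libraries did not overlap for any of these lists. The gap was smaller for plastid ribosomes (4.55), chloroplast-encoded genes (2.202), Calvin cycle genes outside the score (1.88) and aquaporins outside the score (1.85), although the libraries did not overlap there either. Of the 38 photosynthesis genes outside the score, 36 had every library of batches 2 and 3 above every library of batch 1, as did 13.5% of all genes tested, and the exceptions were the CP12 copy PaChr3.1111 and AtRbcX2. Other cells showed the same division for the 38 genes together, at 5.127-fold against 8.43-fold in members. By list, the gap was wider in other cells for the antenna (62.72), protochlorophyllide reductase (21.08) and photosystem II genes outside the score (16.12). The same held for photosystem I genes and aquaporins outside the score, plastid ribosomes and chloroplast-encoded genes. It was narrower in other cells for electron transfer (9.603) and Calvin cycle genes outside the score (1.493). For these Calvin cycle genes the libraries overlapped in other cells. Markers of the bundle sheath were instead lower in batches 2 and 3, in members as in other cells, at 0.266 times the batch 1 level in members. With NAint61 the only library of batch 3, that batch cannot be told apart from its plant.

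**Figure D3:**
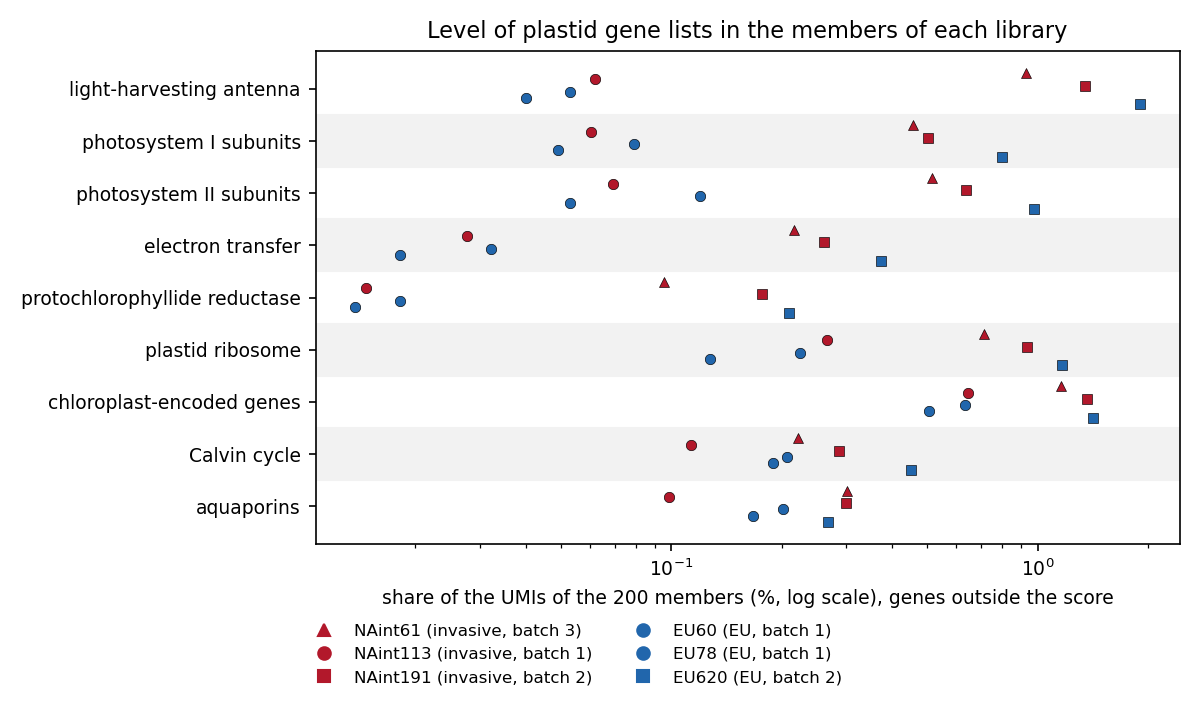
Share of the UMIs of the 200 members on plastid gene lists (%, log scale, genes outside the score) in each library, with colour for population and symbol for batch. The batch 1 libraries of both populations sit together at the low end, at 0.0400% to 0.0619% for the antenna, and the other 3 libraries sit at 0.931% to 1.91%.

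The first comparison of the design asked how members of the invasive plants differed from members of the EU plants. UMIs were summed over the 200 members of each library and tested with edgeR's quasi-likelihood test, with mean reads per cell as a covariate and a Benjamini-Hochberg adjusted p below 0.05 with a log2 fold change beyond 1 in size as the rule. No gene passed, 0 of 22956 (0%), and none of the plastid lists therefore held a called gene. At an unadjusted p below 0.05 there were 2126 genes, 1373 higher in invasive members (5.98%) and 753 lower (3.28%). DESeq2 called 198 genes (0.863% of the genes tested), 163 higher and 35 lower, and gave no adjusted p for 14242 genes. The 3 invasive values lay above all 3 EU values for 4.47% of genes and below them for 2.87%.

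The photosynthesis genes gave no stable difference between populations. The 38 genes outside the score took 2.34%, 0.333% and 3.03% of UMIs in invasive members and 0.491%, 0.349% and 4.51% in EU members, with means of 1.90 ± 1.40% and 1.78 ± 2.36% (SD, n = 3 each, exact permutation p = 1.0, two-sided, 0.1 being the smallest p that 3 against 3 allows). Within batch 1 the invasive library had 0.792 times the mean EU share, and within batch 2 it had 0.672 times. In the fit with the depth covariate, 36 of the 38 genes had a positive log2 fold change and the median was 2.32, against 0.02 over all genes tested, with 26 genes higher and 1 lower at an unadjusted p below 0.05. Without the covariate the median was -0.05 with 17 of 38 positive, and with batch as a term it was -0.45 with 9 of 38 positive, so the sign depended on how library differences were modelled.

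No single gene of these lists passed the rule, and the size of the difference moved with the model in most of those named here. LHB1B2 (PaChr12.1613) had a log2 fold change of 3.35 with an edgeR adjusted p of 0.489, and of -0.05 without the covariate. CP12 from the D subgenome (PaChr3.1111) was the only one of the 38 whose populations did not overlap, at 793.7, 554.2 and 596.8 CPM in invasive members and 1282, 1197 and 798.7 CPM in EU members. Its log2 fold change was -0.79 (edgeR adjusted p = 0.587), and its highest invasive value lay just below its lowest EU value. PORA (PaChr11.92) had 232.4, 22.5 and 759.2 CPM in invasive members and 8.60, 7.85 and 559.5 CPM in EU members, a log2 fold change of 4.61 (edgeR adjusted p = 0.489), which was 0.75 without the covariate, 0.94 with batch as a term and 2.33 without NAint191. ASN1 (PaChr22.1105), an asparagine synthetase known in Arabidopsis to rise under sugar starvation, had 248.2, 51.7 and 416.7 CPM in invasive members and 11.128, 3.23 and 219.1 CPM in EU members, a log2 fold change of 4.45 (edgeR adjusted p = 0.485), which was 1.502 without the covariate and 1.959 with batch as a term. DESeq2, in contrast, called LHB1B2, PORA and ASN1. With the same covariate it called 16 of the 38 photosynthesis genes outside the score, among them 8 of the 11 antenna genes, against 0.863% of all genes tested. That background share is low in part because 14242 of the 22956 genes got no adjusted p and could not be called. For PORA and ASN1 each invasive library stood above the EU libraries of its own batch, where it had one, but the populations as wholes overlapped.

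The clearest separation of the populations in members lay in genes of the B chromosome, a supernumerary chromosome outside the standard set, which the study named chromosome 24. The study named these 4 genes from these same samples, so they are not independent evidence of a direction. SCC3 (PaChr24.240), a gene for a cohesin subunit that holds sister chromatids together, had 131.3, 104.7 and 88.9 CPM in invasive members and 0 CPM in all 3 EU libraries. That is at least 378-fold higher in invasive members, taking the floor of 3 counts over the EU group (edgeR adjusted p = 0.0896). A second SCC3 gene (PaChr24.218) had 30.3, 24.1 and 20.68 CPM in invasive members and 0 CPM in all 3 EU libraries, at least 87.3-fold higher. Both genes were thus read in every invasive library and in no EU member.

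IMP-alpha3 (PaChr24.43) was named for its homologue, an importin that carries proteins into the nucleus. From its truncated coding sequence the study judged this copy likely to be a pseudogene. It had 107.1, 200.7 and 135.2 CPM in invasive members and 0.506, 0 and 0.164 CPM in EU members. Its 1232 UMIs against 2 gave a ratio of 733.6 (95% exact interval 202.7 to 6064, counting error only), with an edgeR adjusted p of 0.0575. GATA2 (PaChr24.82) was named for a transcription factor of the GATA zinc finger family, with which the study reported partial homology. It had 24.2, 15.01 and 14.2 CPM in invasive members and 0.506, 0 and 0 CPM in EU members. Its 159 UMIs against 1 gave a ratio of 189.4 (95% exact interval 33.5 to 7526), with an edgeR adjusted p of 0.168. None of the 4 passed the rule in members. All 4 passed with no filter on low counts, and also with the 1200 highest-scoring cells of all libraries pooled. The pooled ranking took 1 and 2 cells from EU60 and EU78 and 4 from NAint113, so those sums rested on few cells. PaChr24.43 passed in 6 of 19 alternatives, among them DESeq2, batch as a term and leaving out NAint191 (edgeR adjusted p = 0.0484 for the last). PaChr24.240 passed in 3, the remaining one being DESeq2. In the other cells, where 8 of 33422 genes were called (0.0239%), PaChr24.240, PaChr24.218 and PaChr24.82 passed with edgeR adjusted p of 0.0117, 0.0272 and 0.0442, and PaChr24.43 did not (0.313). The difference between members and other cells was itself tested and none of the 4 passed, with an edgeR adjusted p of 1 for each, which does not show that the classes were alike. PaChr24.240 had 131.3, 104.7 and 88.9 CPM in invasive members and 127.5, 84.3 and 68.5 CPM in other invasive cells.

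The second comparison asked whether the population difference in members was unlike that in other cells. It was tested as the interaction of cell class with population on the 12 sums, with the library as a block, and 1 of 33424 genes passed (0.00299%), as also with DESeq2, while 928 had an unadjusted p below 0.05 (1.66% of genes in the positive direction and 1.12% in the negative). The gene was PaChr4.23, whose closest Arabidopsis gene is AT5G46890. It had 1.44, 0.395 and 0 CPM in invasive members and 49.1, 33.2 and 28.7 CPM in EU members, against 4.82, 1.48 and 1.02 CPM in other invasive cells and 8.59, 6.377 and 6.79 CPM in other EU cells. The log2 difference of differences was -4.29 (SE 0.56, edgeR adjusted p = 0.0330), from -5.75 (SE 0.75) in members and -1.67 (SE 0.56) in other cells, neither of which passed alone (edgeR adjusted p = 0.168 and 0.525). PaChr4.23 was read in few cells, 2, 1 and 0 invasive members and 13, 9 and 9 EU members. In the EU libraries the 3 cells with most UMIs held 54 of 97, 55 of 72 and 127 of 175 UMIs. It passed in 7 of 17 alternatives, with an adjusted p of 0.00093 to 1.0. The call was lost without NAint61, NAint113 or NAint191 (edgeR adjusted p = 0.490, 0.120 and 0.0618) and without EU60 (0.140), with log2 values of -5.16, -4.28, -4.14 and -4.34.

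**Figure D4:**
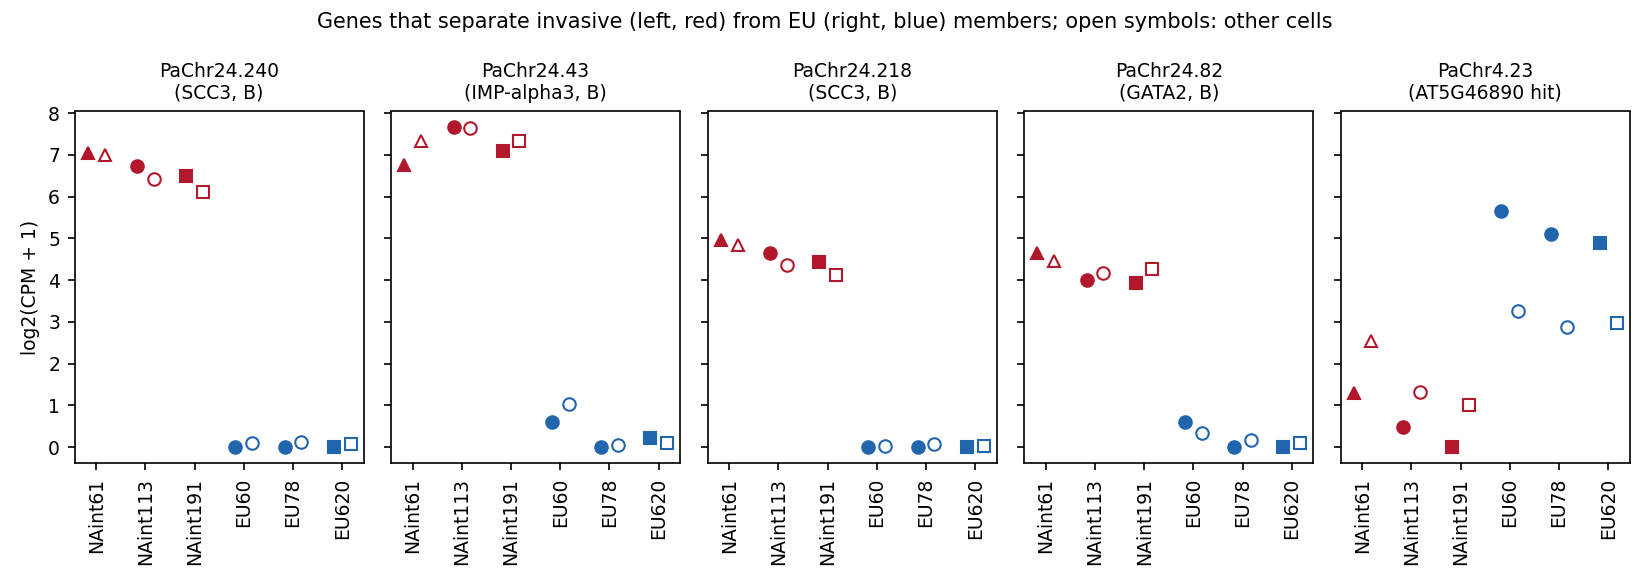
Level (log2 of CPM + 1) of the 4 B chromosome genes and of PaChr4.23 in members (filled) and other cells (open) of the 3 invasive libraries (red, left) and the 3 EU libraries (blue, right). The 4 B chromosome genes are high in both classes of invasive cells and at or near 0 in EU cells, while PaChr4.23 is highest in EU members, at 28.7 to 49.1 CPM.

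The reed is an allotetraploid with an A and a D subgenome, so most photosynthesis genes have a copy in each, and near-identical copies may share reads. In 14 such pairs the share of UMIs from the A copy was measured in members. PSAH-2, PSAE-2, OE23 and the aldolase FBA2 had over 50% from the A copy in all 6 libraries, RBCS1A, the small subunit of Rubisco, had under 50% in all 6, and the other 9 pairs lay on both sides. The score used the A copies of PSAH-2 and PSAE-2, so the selection shaped their A shares in members. In other cells the A share was 72.5% to 97.7% for PSAH-2 and 30.0% to 60.0% for PSAE-2. RBCS1A was the most lopsided, with 20.08%, 17.5% and 14.6% from the A copy (PaChr22.687) in invasive members and 9.20%, 7.84% and 17.6% in EU members. The RBCS1A pair had as few as 51 UMIs in the members of a library, so its shares are rough. PSAH-2 had 65.9%, 81.1% and 66.4% from the A copy (PaChr9.1485, a score gene) in invasive members and 84.3%, 94.5% and 66.1% in EU members. Members had a lower A share than the other cells of their library in all 6 libraries for 3 pairs (PSAH-2, GAMMA-TIP and PORA), and a higher one for 4 (PSAE-2, PSBQ, PSBX and bL17c), some of which hold score genes.

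Among the 9 pairs without a score gene, PORA was the only one whose populations did not overlap in members. Its A copy (PaChr7.112) gave 48.6%, 53.3% and 39.8% of the pair's UMIs in invasive members and 78.8%, 81.7% and 57.9% in EU members, means of 47.2 ± 6.86% and 72.8 ± 12.98% (SD, n = 3 each). The exact permutation p was 0.1, two-sided, the smallest that 3 against 3 allows, and 0.943 after adjustment over the 22 values per library tested. The invasive share in members was lower by 27.0 percentage points within batch 1 and by 18.1 within batch 2. Other cells showed the same division, so it was not particular to members. Their A share was 57.0%, 61.11% and 42.1% in the invasive libraries and 84.6%, 88.3% and 61.25% in the EU libraries, without a test. LHCB2, in contrast, ranged from 14.5% to 63.7% over libraries, with 63.7%, 54.3% and 46.8% in invasive members and 14.5%, 60.2% and 33.5% in EU members (exact permutation p = 0.3). In the members of a library the PORA pair had as few as 80 UMIs and the LHCB2 pair as few as 69. None of the 22 values passed after adjustment, and the populations overlapped for all of them but PORA.

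**Figure D5:**
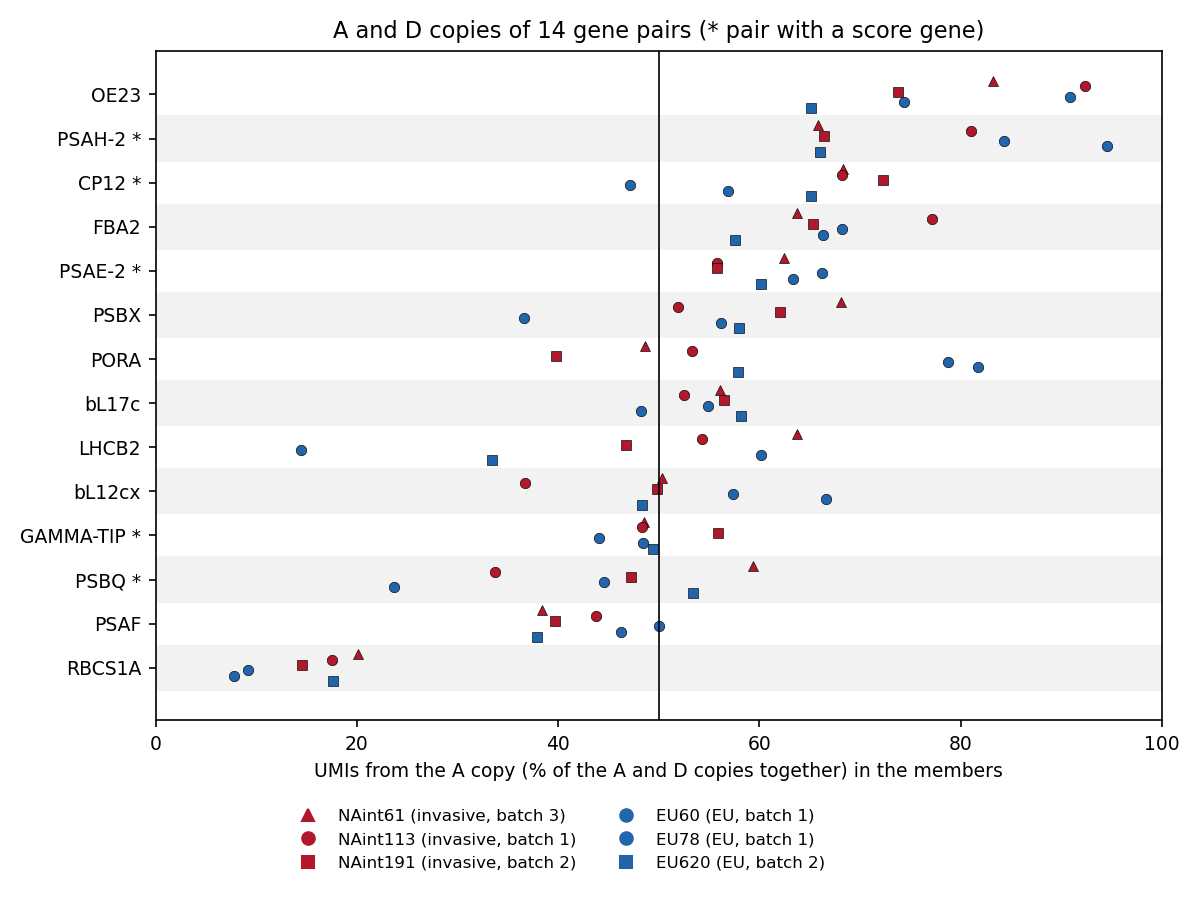
Share of UMIs from the A copy (% of the A and D copies together) in the members of each library for 14 gene pairs, with an asterisk where 1 copy is a score gene. RBCS1A lies below 50% in all 6 libraries at 7.84% to 20.08%, and PORA is the pair in which the invasive libraries (39.8% to 53.3%) lie below the EU libraries (57.9% to 81.7%).

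The same score was applied to the section of the NAint61 bud, where a segmented cell is an outline on the image that can hold parts of several cells. Of 78619 segmented cells, 54226 had at least 200 counts, and the 1085 with the highest scores, the top 2%, were compared with the rest without a test, since there was 1 section. They had a median of 1472 counts against 562 and of 8 score genes against 1. The 38 photosynthesis genes outside the score took 2.80% of their counts against 0.618% in the other segmented cells, a ratio of 4.53, and 37 of the 38 were higher. The antenna had a ratio of 4.99, photosystem I genes 4.32, photosystem II genes 4.35, Calvin cycle genes 3.80 and plastid ribosome genes 3.37. The order of the lists thus put the antenna first in the section as in the single cells.

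Some other lists differed from the single cells. Markers of epidermal cell 2 took 1.70% of the counts of the high-scoring segmented cells against 0.754% in the rest, a ratio of 2.25, whereas all 10 were lower in the single-cell members. Bundle sheath markers had a ratio of 0.984, against 0.455 in the single cells of NAint61. Markers of G2/M phase had a ratio of 0.639, against 1.65 in the single cells of NAint61. Meristematic markers were lower in both, at 0.455 in the section and 0.799 in the single cells of NAint61. The high-scoring outlines were also deeper, as given above, and the part of depth in these ratios was not tested.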

How the data were processed

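The authors deposited UMI counts per gene and cell for 6 libraries (Cell Ranger 8.0 and Scanpy, per the submitters' processing notes; reads aligned to a modified ASM4037322v1 assembly with lifted gene models) and segmented-cell counts of 1 bud section. The members, gene lists and tests were chosen with earlier results of these data known. Counts were summed per library over the 200 members and over the other kept cells and tested with edgeR 4.0.16 in R 4.3.3 (TMM scaling, mean reads per cell as the study lists them as a covariate, at least 10 counts in 1 library, Benjamini-Hochberg adjustment). SE was the log2 fold change divided by the square root of F, and is approximate. The interaction had the library as a block. DESeq2 1.42.0 was an alternative. CPM are counts scaled to 1000000 UMIs of the summed cells, and log2 ratios used CPM + 1. Per-library values were compared by two-sided exact permutation (scipy 1.17.1) with Benjamini-Hochberg adjustment over 22. Each library is 1 plant. Scrublet (scanpy 1.11.5), whose automatic threshold marked 0 or 1 cells per library, was set to the top 8%, and doublets were left in except in 1 alternative. Named genes were the score genes, the 20 genes outside the score with the largest median log2 ratio and at least 50 CPM in members, called genes of the lists, the 4 B chromosome genes, called interaction genes, the genes of highest CPM in each photosynthesis list, and the gene pairs. ASN1 and AtRbcX2 were singled out after their values were seen. The test was checked on simulated data. Gene symbols were matched by chromosome and number. Intervals cover counting error only. Sequences were not used here.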

Additional observations from a re-analysis of the deposited data

Results flagged for a closer look

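PaChr4.23, whose closest Arabidopsis gene is AT5G46890, was the single gene whose difference between populations was itself different in members and in other cells, by -4.29 on the log2 scale (SE 0.56, edgeR adjusted p = 0.0330, lower in invasive plants and more so in members). Its UMIs came from few cells, 5, 1 and 0 UMIs in invasive members and 97, 72 and 175 in EU members, and 3 cells of each EU library held 54, 55 and 127 of them. The value stayed negative in all 17 alternatives, at -5.16 to -3.09.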

How the results depend on the processing

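The contrast of members with other cells kept its direction in all 11 alternatives that changed the number of cells, the score, the depth, the doublets or the libraries, with a median log2 ratio of 3.60 to 4.17 over the photosynthesis genes. Calls between populations were few and depended on the processing. In members there were 445 called genes when the 1200 highest-scoring cells of all libraries were pooled. That ranking took only 4, 1 and 2 cells from NAint113, EU60 and EU78, and its median log2 fold change over all genes was 1.45. Called genes numbered 18 with no filter on low counts, 198 with DESeq2, 1 with batch as a term and 3 with the replicate block. With a library left out there were 0 to 2 (2 without invasive replicate 3). For the interaction there were 0 with 100 or 400 cells per library, with the score from the 6 photosystem genes, and with thinning to 2000 UMIs. There were also 0 without the library block, 10 with the pooled cells, and 0 to 79 with a library left out. Those were 79 without EU replicate 3, 5 without EU replicate 2, and 0 without EU replicate 1 or without any 1 of the invasive libraries. The cause was not tested. Replicate numbers were not used as pairs in the main fit. Same-numbered libraries deviated together with r of 0.017, 0.51 and 0.58, of which 2 of 3 exceeded 0.1, and 2 of 3 correlated best with their own number. The same-numbered libraries with r of 0.51 and 0.58 also shared a batch label, so pairing by number and batch cannot be told apart. With the replicate block the median of the photosynthesis genes was 0.65. That median was -0.053 without the covariate and -0.45 with batch as a term, and 1.111 to 2.72 with a library left out. LHB1B2 (PaChr12.1613) was -0.050 without the covariate, and CP12 (PaChr3.1111) was 1.66 with the pooled cells. With a library left out, invasive minus EU shares ranged from -0.201 to 0.734 percentage points for the antenna, -0.058 to 0.463 for plastid ribosomes and -0.599 to 1.48 for photosynthesis genes, so 1 library decided their sign. None of the 22 values per library passed in any of the 10 alternatives, a threshold that 3 against 3 cannot reach. In the section the ratio was 4.109 at a minimum of 500 counts. With 3 plants per population, and 0 to 2 calls in most fits, a missing call does not show that levels were alike.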
